A study of Mus musculus with 4 samples.

Results

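The integrin chains and the linker proteins that join them to actin were followed across stromal and T cells of Bcr-Abl+ tumours in Wt and Sipa1-/- mice. Members were chosen by gene symbol, from the non-control spots whose transcript accession led to 1 of 43 names. The set held 18 alpha chains, 8 beta chains and 17 linkers, out of 22907 genes with a RefSeq symbol on the array. All 43 were on the array, through 68 probes.

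Bcr-Abl+ hematopoietic progenitor cells (HPCs) marked by GFP, from Wt B6 bone marrow, were placed in Matrigel under the skin of Wt or Sipa1-/- mice at 15000 cells per mouse, and the tumours were taken on day 12. Every group shared those tumour cells, the strain C57BL/6Ncr and an age of 8 weeks. From each genotype, 1 array held mesenchymal stroma cells (MSCs), sorted as GFP- CD45- Ter119- CD31- cells, and 1 array held CD8+ T cells, sorted as GFP- TCRb+ CD8+ cells. With 5 mice per genotype and 1 array per group, no test was possible, and each difference compares 2 arrays. The Sipa1-/- hosts lacked the gene in every tissue, so an effect within MSCs and an effect of the altered host cannot be told apart. The MSC gate used only markers that were absent, so it named no mesenchymal protein.

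Sipa1 encodes a GTPase-activating protein that turns off Rap1, a small GTPase. Active Rap1 brings talin to the tails of integrin beta chains through the adaptor RIAM (Apbb1ip), and talin together with kindlin (the Fermt genes) switches the receptor to its high-affinity form. An integrin is a pair of 1 alpha and 1 beta chain: the alpha chain largely sets the ligand, such as collagen, laminin or the RGD motif of fibronectin, and some pairs are made only by leukocytes. Inside the cell, ILK, PINCH and parvin form a complex, and vinculin, alpha-actinin, tensin and zyxin tie the receptor to actin. These steps of activation act on protein, and the arrays measured RNA.

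Levels are given as log2 signal minus the 75th percentile of all non-control spots of the same array, so that a step of 1 is a 2-fold change. A gene's levels on different arrays can be compared, and levels of different genes cannot. Both Sipa1 probes were lower in Sipa1-/- cells, and neither was absent. The first read 3.05 in Wt MSCs, 1.46 in Sipa1-/- MSCs, 3.43 in Wt CD8+ T cells and 1.39 in Sipa1-/- CD8+ T cells. The second read 5.03, 3.78, 5.40 and 3.73 in the same order, well above background on all 4 arrays, and whether either probe lies in the deleted part was not determined. Between 60.3% and 65.3% of spots were well above background, and repeated spots of a probe had a median SD of 0.040 to 0.044 on the log2 scale, which covers the error of a spot only. All 4 arrays lay on 1 slide.

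Markers of other cell types were measured in the sorted populations as well. All 15 mesenchymal markers were well above background on the MSC arrays, but also on both CD8+ T cell arrays. On the Wt MSC array, 12 of 12 common leukocyte markers and 14 of 14 B lineage markers were well above background, although the gate left out CD45+ cells. The Sipa1-/- MSC array and both CD8+ T cell arrays each had 12 and 13, so these counts do not separate the arrays. The levels did differ. The B lineage markers had a summed level (log2) of 9.45 in Wt MSCs and 5.44 in Sipa1-/- MSCs. In Wt and Sipa1-/- CD8+ T cells it was 6.32 and 6.07. For the common leukocyte markers it was 7.41 and 5.18 in MSCs, and 8.82 and 8.75 in CD8+ T cells, in the same order. All 11 granulocyte markers and all 12 macrophage and dendritic cell markers were well above background on all 4 arrays. Ptprc, which encodes CD45, had a level of 0.76 in Wt MSCs and -0.55 in Sipa1-/- MSCs, against 4.38 and 4.48 in the CD8+ T cells. Throughout, fewer cells of a type and less RNA per cell cannot be told apart.

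Promoters of some members are printed first, picked with the expression values known. RefSeq promoters (GRCm38.p6) were matched by symbol for 31 of 43 members, and the 250 bases before each start were searched on both strands for 6 motifs. The 31 members had 37 promoters, and a member counted if any of its promoters held the motif. Percentages over all promoters count single promoters, so the member counts can run high against them, for every motif. The letters TGTGGT, the core bound by RUNX factors, stood in 5 of the 31, and in 14.0% of 32851 promoters of the same length. Those 5 were Itga3, Itga4, Fermt3, Ilk and Parvg. All 3 members that were over 2-fold lower in Sipa1-/- MSCs and had a promoter in the table held it, as did 2 of 14 members under 2-fold and 0 of 11 members that were over 2-fold higher. Itga6, also over 2-fold lower, had no promoter in the table. The motif was found with the expression values known, and a match is a description of letters. TGTGGT was 1 of 6 motifs, and the calls that split the members came from these same data, so the split is no test. The 3 promoters follow, 5′ to 3′ on the strand of the gene, with the match in capitals. It reads ACCACA, the reverse complement, in Parvg and Itga4. They lie at chr19:7019470-7019719 (minus strand), chr15:84325869-84326118 (plus strand) and chr2:79255176-79255425 (plus strand). Parvg had 2 promoters, and only the 1 with the match is printed.
Fermt3: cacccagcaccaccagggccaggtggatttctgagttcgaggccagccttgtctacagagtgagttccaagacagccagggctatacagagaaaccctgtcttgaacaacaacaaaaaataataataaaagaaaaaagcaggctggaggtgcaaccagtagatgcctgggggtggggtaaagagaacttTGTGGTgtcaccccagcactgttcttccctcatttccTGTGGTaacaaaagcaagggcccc
Parvg: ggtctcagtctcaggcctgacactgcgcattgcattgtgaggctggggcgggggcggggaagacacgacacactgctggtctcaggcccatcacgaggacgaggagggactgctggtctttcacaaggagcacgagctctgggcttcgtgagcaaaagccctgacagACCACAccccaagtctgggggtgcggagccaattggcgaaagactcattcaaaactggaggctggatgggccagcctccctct
Itga4: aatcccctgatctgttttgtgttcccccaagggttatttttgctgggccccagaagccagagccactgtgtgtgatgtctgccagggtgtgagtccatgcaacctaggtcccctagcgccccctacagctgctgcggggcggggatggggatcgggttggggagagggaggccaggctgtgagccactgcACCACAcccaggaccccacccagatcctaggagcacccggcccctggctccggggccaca

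The CArG box, the site of serum response factor, was found in promoters of 3 members, Fermt2, Vcl and Itgb6, and in 1.47% of all promoters. It began 204 bases before the start of Fermt2 and 227 bases before that of Vcl. Itgb6 was above background on no array, and its promoter is not printed. By call in Sipa1-/- MSCs, the box stood in 1 of 11 higher members (Fermt2), 1 of 14 under 2-fold (Vcl) and 0 of 3 lower ones. The promoters of Fermt2 and Vcl lie at chr14:45530066-45530315 (minus strand) and chr14:20929148-20929397 (plus strand), with the CArG box in capitals.
Fermt2: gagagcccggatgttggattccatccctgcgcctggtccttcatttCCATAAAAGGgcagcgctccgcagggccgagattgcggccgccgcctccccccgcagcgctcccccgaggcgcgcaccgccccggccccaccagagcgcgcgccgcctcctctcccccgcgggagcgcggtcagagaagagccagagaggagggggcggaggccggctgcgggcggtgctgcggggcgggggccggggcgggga
Vcl: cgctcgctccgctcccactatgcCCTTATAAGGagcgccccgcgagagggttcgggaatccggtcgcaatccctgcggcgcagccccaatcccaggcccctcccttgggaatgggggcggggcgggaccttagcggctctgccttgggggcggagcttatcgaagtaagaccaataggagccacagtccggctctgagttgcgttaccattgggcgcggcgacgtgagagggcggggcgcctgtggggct

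The other motifs were TEAD (GGAATG), in 3 of the 31 against 12.6% of all promoters, ETS (GAGGAA), in 11 against 23.3%, Sp1 (GGGCGG), in 16 against 32.7%, and AP-1 (TGANTCA), in 2 against 6.75%. The ETS letters stood in 4 of the 11 higher members, Itga11, Itga5, Itgav and Itgb1, in 5 of the 14 under 2-fold, and in Parvg of the 3 lower ones.

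**Figure D1:**
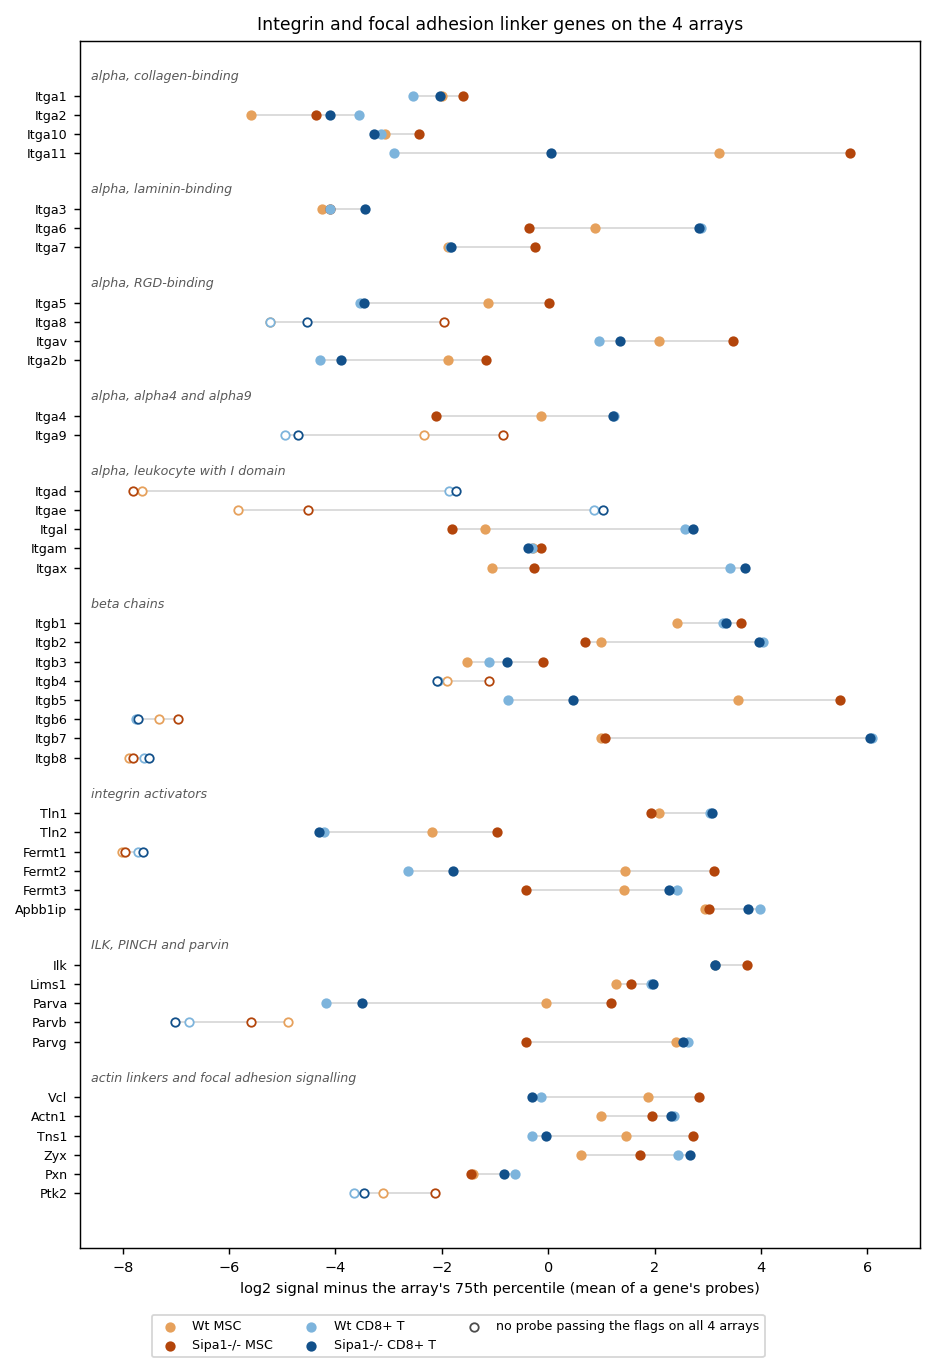
Each row is 1 of the 43 genes and each point 1 array, on the log2 scale relative to the 75th percentile of its array. Filled points average the probes that passed the quality flags on all 4 arrays, for 33 genes, and open points mark genes with no such probe. Itga11, Itgb5, Fermt2 and Parva lie higher on both MSC arrays than on both CD8+ T cell arrays, and Itgb7, Itgb2, Itgal and Itgax lower.

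The question of the MSC comparison was how loss of Sipa1 in the host altered the stroma of the tumour. In Sipa1-/- MSCs, 15 of 37 measured members were at least 2-fold higher than in Wt MSCs and 4 were at least 2-fold lower. Over all 15294 measured genes, 19.3% were past 2-fold upward and 11.3% downward. The higher members were mostly receptors for collagen and RGD ligands with their beta chains and stromal linkers. The lower members were Parvg, Itga4, Fermt3 and Itga6. The median difference was 0.78 over the members and 0.04 over all genes, and 28 of 37 members lay above 0, against 51.8% of all genes.

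Among the collagen-binding alpha chains, Itga11, the collagen receptor chain of fibroblasts, went from 3.21 in Wt to 5.67 in Sipa1-/- MSCs, a 5.50-fold difference. Itga2 went from -5.59 to -4.37 (difference 1.22), at the dim end of the scale, and its difference was 0.32 with normexp, another background correction. Itga10 had a difference of 0.63. Itga1 averaged 0.39, but its 2 probes gave -0.12 and 0.90. All 4 averages of the collagen group were thus above 0, and 2 passed 2-fold.

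The RGD-binding alpha chains shared that direction. Itga8, a chain of contractile mesenchymal cells, went from -5.23 to -1.95, 9.73-fold higher. Its 1 probe was dim in Wt, and with normexp its difference was 1.47 rather than 3.28. Itgav, the alpha chain of the vitronectin receptor, went from 2.08 to 3.48 (2.64-fold). Itga5, the fibronectin receptor chain, went from -1.13 to 0.02 (2.21-fold). Itga2b, known as the platelet chain, stayed under 2-fold, with -1.89 and -1.17. The group had 3 of 4 chains past 2-fold and a median of 1.27.

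The laminin receptors split. Itga7, a chain of muscle and perivascular cells, went from -1.88 to -0.24 (3.12-fold higher). Itga6, found on many epithelial and blood cells, went from 0.87 to -0.36 (2.35-fold lower), with -1.25 and -1.22 from its 2 passing probes. Itga3 averaged 0.15 with probes of opposite sign (-0.28 and 0.58).

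The alpha4 and alpha9 chains, which are close relatives, moved apart. Itga4, which carries lymphocytes to VCAM-1, went from -0.13 in Wt to -2.10 in Sipa1-/- MSCs, 3.92-fold lower, and both probes gave about the same value (-2.02 and -1.92). With normexp the difference was -1.26. Itga9 went from -3.32 to -1.74, 2.99-fold higher (a difference of 1.58, and 0.86 with normexp). Its second probe failed a flag on the Sipa1-/- array and read -1.35 and 0.03.

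The leukocyte alpha chains with an I domain did not follow Itga4. Itgal, the LFA-1 chain, was at -1.18 in Wt and -1.80 in Sipa1-/- MSCs (difference -0.62). Itgax, the CD11c chain, was at -1.05 and -0.27 (difference 0.78). Itgam, the CD11b chain, averaged 0.15, and its 2 probes disagreed. The dim probe gave -0.93 and the bright one, which went from 3.59 to 4.83, gave 1.24. Itgad was not well above background on either MSC array. Itgae was well above background only in Sipa1-/- MSCs, where it was at least 2.50-fold higher, at a level of -4.51. None of the 3 measured chains of this group thus passed 2-fold.

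Of the beta chains, Itgb5 went from 3.57 to 5.48 (3.75-fold), Itgb3 from -1.53 to -0.10 (2.71-fold) and Itgb1 from 2.41 to 3.63 (2.32-fold). Itgb5 and Itgb3 pair with alpha v, and Itgb1 pairs with most of the collagen, laminin and fibronectin chains named above. Itgb4, the partner of alpha 6 in epithelia, had a difference of 0.79. Itgb2, the shared beta chain of the leukocyte integrins, was at 0.99 and 0.70 (difference -0.29). Itgb7, the partner of alpha 4 and alpha E in T cells, was at 1.00 and 1.07 (difference 0.06, below 0 when arrays were scaled to their medians). Itgb6 and Itgb8 were above background on no array.

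The activators of integrins changed by family member. Fermt2 (kindlin-2, the form of mesenchymal cells) went from 1.45 to 3.12, 3.18-fold higher, while Fermt3 (kindlin-3, the form of blood cells) went from 1.43 to -0.42, 3.60-fold lower. Tln2 (talin-2) went from -2.19 to -0.96 (2.35-fold higher), and both its probes gave similar values (1.20 and 1.26). Tln1, the widely expressed talin, was at 2.09 and 1.93. Apbb1ip, the Rap1 effector that recruits talin, was at 2.94 and 3.03. The differences of Tln1 (-0.16) and Apbb1ip (0.09) changed sign with the scaling of the arrays. Fermt1, the epithelial kindlin, was above background on no array.

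The parvins, which bind ILK and actin, showed the same contrast. Parva, the alpha-parvin of most tissues, went from -0.05 to 1.18 (2.35-fold higher), with 0.94 and 1.53 from its 2 probes. Parvg, the gamma-parvin of blood cells, went from 2.41 to -0.41, 7.09-fold lower and the lowest difference of any member. Parvb, its neighbour on chromosome 15, was dim, at -3.68 and -4.43 (difference -0.75). Ilk had a difference of 0.60 and Lims1 (PINCH-1) of 0.28.

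The actin linkers lay near the 2-fold line. Tns1 (tensin-1) went from 1.47 to 2.73 (difference 1.26) and Zyx (zyxin) from 0.61 to 1.72 (difference 1.11). Just under the line were Vcl (vinculin), from 1.87 to 2.84 (difference 0.97), and Actn1 (alpha-actinin-1), from 0.99 to 1.95 (difference 0.96), which passed it on the deposited scale of the series matrix. Pxn (paxillin) averaged -0.04, with probes at -0.38 and 0.30. Ptk2 (focal adhesion kinase) failed a uniformity flag on the Wt MSC array, though above background there, and read -3.11 and -2.13 unflagged.

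**Figure D2:**
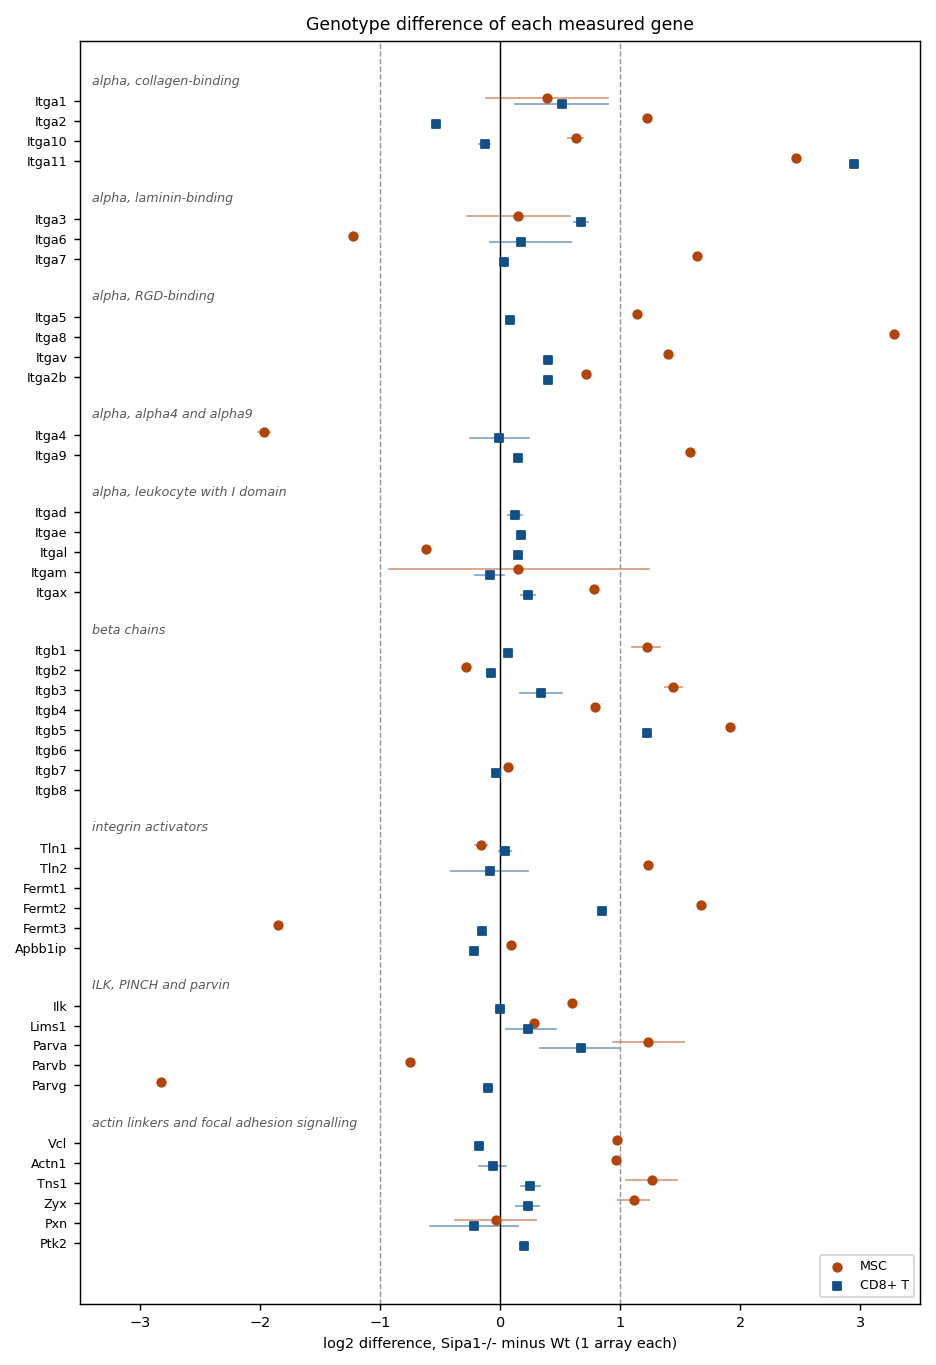
Points give the log2 difference, Sipa1-/- minus Wt, of each measured gene in MSCs (circles) and CD8+ T cells (squares), and bars run from the lowest to the highest probe of the gene. Dashed lines mark 2-fold. In MSCs, 15 genes lie past the right line and Parvg, Itga4, Fermt3 and Itga6 past the left one. In CD8+ T cells, Itga11 and Itgb5 lie past the right line and no gene past the left one.

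Markers of cell types moved in the same comparison. The 12 common leukocyte markers were all at least 2-fold lower in Sipa1-/- MSCs, with a median of -2.19 and a summed level (log2) of 7.41 in Wt and 5.18 in Sipa1-/-. All 13 measured B lineage markers were lower too (median -4.16, summed level 9.45 and 5.44). For example, Cd79b, part of the B cell receptor, went from 6.65 to 2.49. Of the 14 measured mesenchymal markers, 14 were above 0 and 9 at least 2-fold higher, with a median of 1.14 and summed levels of 10.13 and 10.88. Macrophage and dendritic cell markers had a median of 0.70 (summed levels 4.47 and 4.91), with 4 of 12 at least 2-fold higher. Pericyte and smooth muscle markers had 5 of 10 at least 2-fold higher (median 0.85, summed levels 5.14 and 5.29), and Schwann cell markers 4 of 8 (median 0.80, summed levels 1.88 and 3.22). Granulocyte markers were not lower as a list: 9 of 11 lay above 0, with a median of 0.22 (summed levels 9.56 and 9.72). CD8 T cell markers split, with 5 of 9 above 0 (median 0.66, summed levels 4.42 and 2.12). Of the skeletal muscle markers, 8 of 9 lay above 0 (median 0.60, summed levels 6.56 and 7.29). Parvg, Fermt3 and Itga4, which blood cells express, were thus lower in the same pair of arrays as the common leukocyte and B lineage markers. Itgal, Itgb2, Itgb7 and Itgax, also leukocyte genes, had differences of -0.62, -0.29, 0.06 and 0.78. The part of the cell makeup in any of these values was not tested.

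**Figure D3:**
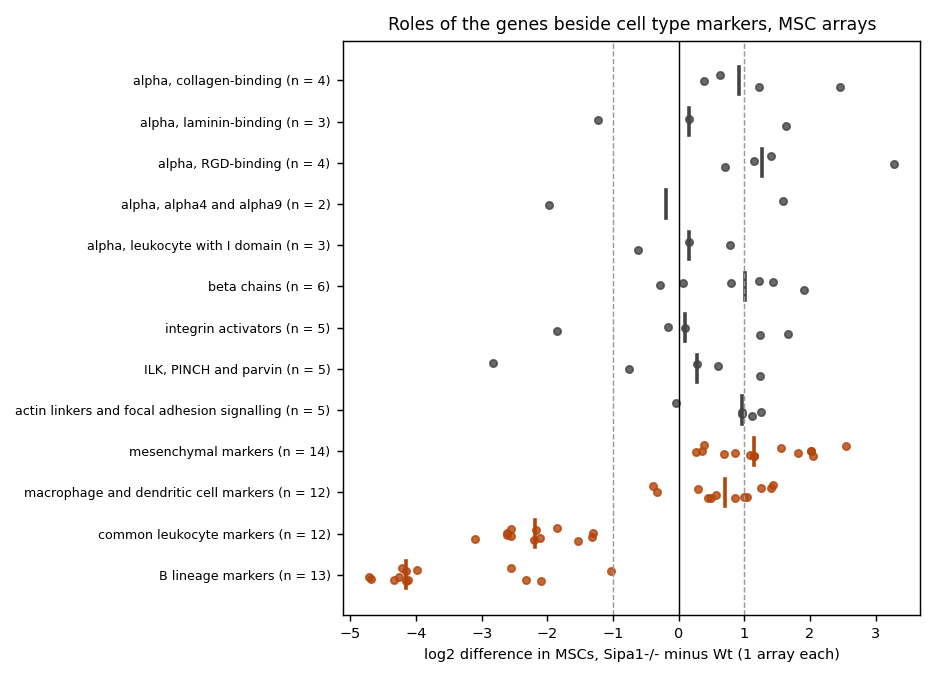
Each point is a gene, its position the log2 difference in MSCs (Sipa1-/- minus Wt), and vertical ticks are medians. Grey rows are the roles of the integrins and linkers, and orange rows are marker lists. The common leukocyte and B lineage markers lie wholly below 0 (medians -2.19 and -4.16), and the mesenchymal markers wholly above it (median 1.14).

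Further lists of the pathway were counted in the MSC comparison. Of 40 other measured focal adhesion genes, 21 were higher by 2-fold or more in Sipa1-/- MSCs and 4 lower, with a median of 1.03. The highest were Flnc (2.25), a filamin, Nexn (1.85), an actin-binding protein, and Enah (1.82), which extends actin filaments. The lowest was Lpxn (-2.11), the paxillin relative of leukocytes. Of 31 measured ligands of integrins, 18 were higher by that much and 2 lower, with a median of 1.50. Postn (periostin) went from 3.84 to 6.38, and Icam2, a ligand of LFA-1 on endothelium and leukocytes, from 3.32 to 0.30. Of 9 measured Rap1 GTPases and effectors, 1 was at least 2-fold higher (Radil, 1.65) and 1 at least 2-fold lower (Rassf5, the leukocyte effector also called RAPL, -1.48). Those counts lie near the shares of all genes and cannot be read as a trait of the Rap1 list.

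In CD8+ T cells, the question was whether the same genotype altered the T cells of the tumour. Only 2 of 37 measured members were at least 2-fold higher in Sipa1-/- cells, and 0 were at least 2-fold lower. Over all 14336 measured genes, 2.66% were past 2-fold upward and 1.40% downward. Itga11 went from -2.90 in Wt to 0.05 in Sipa1-/- cells (7.74-fold, a difference of 2.95, and 1.98 with normexp) and Itgb5 from -0.75 to 0.47 (2.33-fold). Both are chains of mesenchymal integrins. The median over the members was 0.12, with 24 of 37 above 0 against 46.1% of all genes, and it fell below 0 when the arrays were scaled to their medians.

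Under 2-fold, the members with the highest differences were Fermt2, Parva and Itga3. Fermt2 went from -2.64 to -1.79 (difference 0.85) and Parva from -4.18 to -3.51 (0.67). Itga3 had a difference of 0.67 and Itga1 of 0.51, the latter from 2 probes at 0.12 and 0.90. The lowest difference was that of Itga2, at -0.54 (-3.56 and -4.11). In the same pair of arrays, 11 of 15 mesenchymal markers were at least 2-fold higher in Sipa1-/- cells, with a median of 1.55 and summed levels of 8.11 and 8.55. Col1a1, a collagen of fibroblasts, went from 2.74 to 4.29 and Pdgfra from -1.88 to -0.44. The 10 CD8 T cell markers had a median of 0.01, and 8 of 11 granulocyte markers were at least 2-fold lower. The part of stromal RNA in the values of Itga11 and Itgb5 was not tested.

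Several integrin chains that T cells use differed little between the genotypes. Itgal was at 2.57 in Wt and 2.73 in Sipa1-/- cells, Itgb2 at 4.04 and 3.96, Itga4 at 1.23 on both arrays, and Itgb7 at 6.09 and 6.05. The Itga4 level is an average of 2 probes with opposite differences (-0.25 and 0.24). Itgae, which holds resident T cells to E-cadherin, was at 0.87 and 1.04. Their partners inside the cell were as close: Fermt3 was at 2.42 and 2.28, Tln1 at 3.05 and 3.09, Apbb1ip at 3.98 and 3.76, and Parvg at 2.63 and 2.53. Each of these 9 differences, averaged over the probes of a gene, was under 0.25 on the log2 scale. With 1 array per genotype, that does not show that the levels were equal. Fermt3 lies on chromosome 19, as Sipa1 does, with 61 protein-coding genes between them in RefSeq, and its difference was -0.15 here and -1.85 in MSCs.

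Of the members that passed 2-fold in MSCs, Itga7 (0.03), Itgb1 (0.06), Itga5 (0.08), Zyx (0.23) and Tns1 (0.25) had small differences here. Itga8 and Itgb4 failed a flag on the Sipa1-/- array although well above background there, and Itgb6, Itgb8, Fermt1 and Parvb were not above background on either array, so these 6 were not measured.

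Of the other lists, 1 of 38 measured focal adhesion genes was at least 2-fold higher in Sipa1-/- CD8+ T cells (Kank2, 1.15) and 0 were lower, and 0 of 9 Rap1 genes passed 2-fold. Over all genes of this pair, 2.66% were at least 2-fold higher and 1.40% lower, so these counts lie near the shares of all genes. The integrin ligands, many of them matrix proteins of fibroblasts, had 9 of 29 at least 2-fold higher and 1 lower, led by Postn (-1.42 and 0.66) and Col6a1 (1.10 and 3.06).

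The arrays also set MSCs against CD8+ T cells within a genotype. In Wt, 11 of 36 measured members were at least 2-fold higher in MSCs and 10 at least 2-fold lower, against 17.3% and 12.8% of 14222 genes, and 16 lay above 0, against 46.6%. In Sipa1-/- tumours, 12 of 35 were higher and 10 lower, against 21.9% and 18.7% of 14296 genes, and 18 lay above 0, against 42.9%. These comparisons share no array. In both, 10 members were higher in MSCs (Itga11, Itga5, Itgav, Itga2b, Itgb5, Tln2, Fermt2, Parva, Vcl and Tns1) and 6 were lower (Itga6, Itga4, Itgal, Itgax, Itgb2 and Itgb7). None was higher in 1 genotype and lower in the other. The share of all genes with the same call in both genotypes is not given, so this agreement cannot be read as a trait of these members.

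On the stromal side, gaps of over 4 in both genotypes were those of Itga11 (6.12 in Wt, 5.63 in Sipa1-/-), Itgb5 (4.32 and 5.01), Fermt2 (4.09 and 4.91) and Parva (4.13 and 4.69). Among leukocyte integrin chains measured in both genotypes, the gaps on the T cell side included those of Itgb7 (-5.09 and -4.99), Itgax (-4.47 and -3.98), Itgal (-3.75 and -4.52) and Itgb2 (-3.06 and -3.26). Itgax is best known from dendritic cells, and macrophage and dendritic cell markers were also lower in MSCs than in CD8+ T cells (medians -2.03 in Wt and -1.14 in Sipa1-/-). Itgae was at least 105-fold higher in CD8+ T cells than in MSCs of Wt tumours, where MSCs gave no signal well above background, and its difference was -5.56 in Sipa1-/- tumours. Itgad was at least 16.6-fold higher in the T cells of Sipa1-/- tumours. In Wt tumours its level was -1.86 in T cells, and in MSCs it lay under the lowest signal well above background (-5.86). Parvb, above background in MSCs only, was at least 3.69-fold higher there in Wt and at least 2.09-fold higher in Sipa1-/- tumours.

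Several linkers stood on a different footing in each genotype. Fermt3 was -0.99 in MSCs relative to CD8+ T cells in Wt and -2.69 in Sipa1-/- tumours, and Parvg was -0.22 and -2.94. In Wt, the Parvg level of MSCs (2.41) was thus close to that of CD8+ T cells (2.63). Common leukocyte markers had medians of -1.54 and -3.73 in the same comparisons, and B lineage markers of 4.21 and 0.09. In the other direction, Itga2 was lower in MSCs in Wt (-2.03) but not by 2-fold in Sipa1-/- tumours (-0.26). The same held for Zyx (-1.83 and -0.95) and Actn1 (-1.39 and -0.36). With median scaling or the brightest probe, Zyx was at least 2-fold lower in Sipa1-/- tumours too. In Wt, the call of Itga2, from 1 dim probe, was lost with normexp, and that of Actn1 on the series matrix values. Itga7 passed 2-fold higher only in Sipa1-/- tumours (1.58, against -0.03 in Wt). The difference between the genotypes was not tested for any of them.

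**Figure D4:**
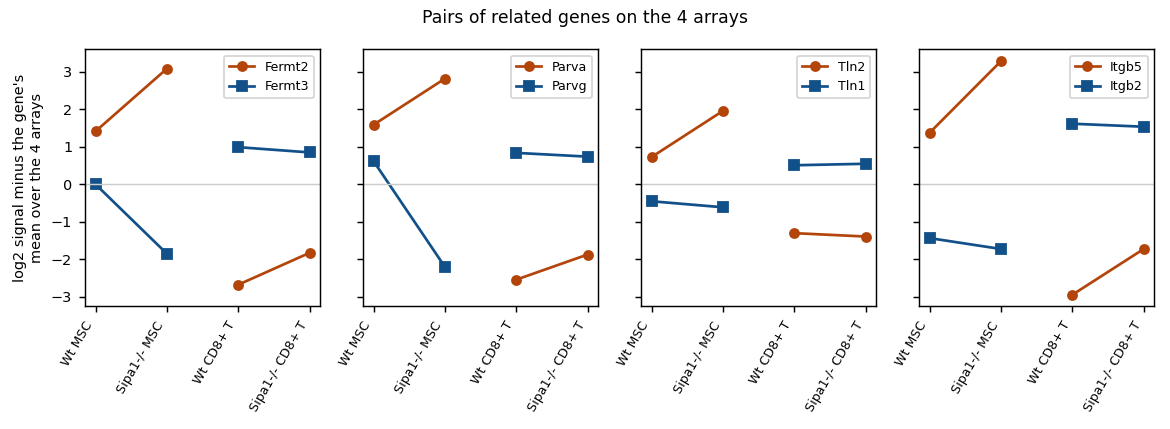
Each panel shows the level of 2 related genes on the 4 arrays as log2 signal minus the mean of that gene over the arrays. Fermt2, Parva, Tln2 and Itgb5 (circles) lie higher in both MSC arrays than in both CD8+ T cell arrays, and higher in Sipa1-/- than in Wt MSCs. Fermt3 and Parvg (squares) differ by -1.85 and -2.83 between the MSC arrays, while Tln1 and Itgb2 differ by -0.16 and -0.29.

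The pairs of related genes were picked by hand with earlier results of these data known, so their contrast is no test. Within 1 pair of arrays they gave opposite or unequal values. Fermt2 minus Fermt3 was 3.52 in MSCs (Sipa1-/- minus Wt) and reached 1.00 in CD8+ T cells. Parva minus Parvg was 4.06 and 0.77, and Tln2 minus Tln1 was 1.39 and -0.13. A constant shift of an array leaves such a difference between 2 genes as it was, but quantile normalization changes it.

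The scaling sets where 0 lies for single genes. Scaling each array to its median moved the median of all genes by -0.14 for the MSC pair and by -0.15 for the CD8+ T cell pair. On the deposited scale of the series matrix it moved by 0.21 and 0.13. Between MSCs and CD8+ T cells the shifts were -0.23 and 0.45 in Wt and -0.22 and 0.53 in Sipa1-/-. In Wt, the split of members higher and lower in MSCs was then 10 and 14 under median scaling and 12 and 7 on the deposited scale. Over all genes, 14.6% were higher and 17.6% lower under median scaling, and 24.9% and 7.61% on the deposited scale.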

How the data were processed

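Labelled cRNA was hybridised to 1-colour Agilent mouse arrays, and spots were read with Feature Extraction (12.0.3.1 in the file headers, 9.1 in the submitters' processing notes). The deposited intensity per spot is the processed signal, corrected by the authors' software for background. The deposited series matrix holds, per array, the same intensity times 1 constant (0.941 to 1.34), on a linear scale.

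Here log2 of the processed signal minus the array's 75th percentile over 59305 non-control spots was used. A probe entered a comparison if it passed the study's flags on both arrays: IsSaturated 0, both uniformity outlier flags 0, IsPosAndSignif 1 and IsWellAboveBG 1. Spots were averaged to probes and probes to genes. Accessions led to RefSeq symbols (GRCm38.p6) for 57.6% of spots. The array was designed on another build, so that table gave only names and neighbours of genes. Of the 43 members, 20 had 1 probe, 21 had 2 and 2 had 3. A gene is called higher or lower at a log2 difference of 1. With 1 array per group there is no p-value, and the number of arrays limits the precision. Where a gene was not well above background on 1 array, a bound against the lowest signal well above background, or its own signal if higher, is given as "at least". Summed levels are log2 of the summed linear levels of a list's measured genes.

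All members are named, and of other lists the markers that define a cell type and up to 3 genes at either end of a comparison. Members and lists were chosen with earlier results of these data known. Scripts ran in Python 3.11.15 with pandas 2.3.3, and limma 3.58.1 in R 4.3.3 gave the normexp values. The step from spots to calls was run on simulated arrays with planted changes well past 2-fold. That run did not cover changes near 2-fold or normexp. There were 7 alternatives: flags on either array or none, median or quantile scaling, series matrix values, the brightest probe, and normexp with an offset of 50.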

Additional observations from a re-analysis of the deposited data

Results flagged for a closer look

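In 5 of 34 members measured in both cell types, the genotype difference had opposite signs in MSCs and CD8+ T cells, with both sizes above 0.12 on the log2 scale. For Itga2 it was 1.22 (MSCs) and -0.54 (CD8+ T cells), both from 1 dim probe. Itga10 gave 0.63 and -0.13, Vcl 0.97 and -0.18, and Itgal -0.62 and 0.15. Itga6 gave -1.23 and 0.17, but the CD8+ T cell value included a probe for another transcript that was not above background in MSCs, and with the same 2 probes in both it was -1.23 and -0.04. No test of these contrasts was possible with 1 array per genotype, so whether the 2 cell types differed was not tested. The share of all genes with opposite signs by the same rule is not given, so the count of 5 cannot be read as a trait of the members. In CD8+ T cells, Itga10 came to 0.00 on the series matrix values and Itgal to 0.00 with median scaling.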

How the results depend on the processing

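No member past 2-fold in any of the 4 comparisons changed direction under any of the 7 alternatives. In MSCs, the median difference of the members (0.78) was 0.71 with no flags, 0.64 with median scaling, 0.99 on the series matrix values, 0.90 with the brightest probe and 0.59 with normexp. In CD8+ T cells, the median (0.12) was -0.02 with median scaling and 0.26 on the series matrix values, a shift of all genes by the scaling itself, and the members at least 2-fold higher numbered 1 with normexp, Itgb5 dropping out. Over all genes, 0.753% were higher in Sipa1-/- CD8+ T cells with normexp. With normexp, 10 rather than 15 members were at least 2-fold higher in Sipa1-/- MSCs, against 12.0% rather than 19.3% of all genes. Itga2, Itga5, Itga9, Tln2 and Zyx dropped out, and the cause was not tested. Counts over all genes moved further: with normexp, 1828 were at least 2-fold higher in MSCs, and 108 higher and 99 lower in CD8+ T cells, where 684 and 371 passed with flags on either array and 1058 and 633 with none. Genes higher in MSCs than CD8+ T cells numbered 2456 in Wt and 3129 in Sipa1-/- (3896 and 4737 with flags on either array, 4183 and 5017 with none), and genes lower numbered 1821 and 2671 (1082 and 1357 on the series matrix values). Of all called genes, the percent higher in Sipa1-/- was 63.0 in MSCs (54.1 with median scaling, 74.1 on the series matrix values) and 65.5 in CD8+ T cells (52.5 with median scaling, 76.3 on the series matrix values), and the percent higher in MSCs was 57.4 in Wt (45.4 and 76.6) and 53.9 in Sipa1-/- (42.9 and 76.2). Dim probes, such as those of Itga2 and Itga8, are the least precise. The slide as a block could not be fitted, since all 4 arrays lay on 1 slide. No paired analysis was possible because the groups share only the replicate number 1.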
